A study of Mus musculus with 10 samples.

Results

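The amylase genes were followed by the probe sets whose single gene symbol is Amy1 or Amy2a5. These are 2 genes with 1 probe set each (v00719_s_at for Amy1, v00718_s_at for Amy2a5), of 6123 named genes and 13057 probe sets. Both lie on chip B, as do 3 further probe sets with an amylase symbol, 1 of family design for Amy2a1 and a pair for Amy2b, of family and of relaxed design. Chip A holds 0 amylase probe sets. RNA came from the pancreas, the hypothalamus, white adipose tissue, liver and muscle of adult female mice of the strain C57BL/6, with no treatment named in the labels. Each tissue was hybridised as biotin-labelled cRNA to 1 Affymetrix array of chip A and 1 of chip B, so there are 10 arrays, no replicates, and neither a test nor an error between animals. The labels do not say how many mice were used or whether tissue was pooled, and the adipose arrays carry a title that speaks of a preconfluent state. In bulk tissue, fewer cells of a type and less RNA per cell cannot be told apart.

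Alpha-amylase cuts the internal bonds of starch and glycogen into short sugars. The mouse genome holds its genes in a cluster: the Amy2 genes are known as the pancreatic form, made by acinar cells and stored in zymogen granules with the other digestive enzymes, and Amy1 is known as the form of the salivary glands that is also transcribed in the liver. Mouse Amy1 is a classic case of a gene with alternative promoters, a strong one used in the parotid and a weaker one, further downstream, used in liver and other tissues.

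In the mouse gene table of the assembly GRCm38.p6, 7 protein-coding amylase genes and 1 pseudogene lie on chromosome 3, in the order Amy2b, Amy2-ps1, Amy2a5, Amy2a4, Amy2a3, Amy2a2, Amy2a1 and Amy1. A probe set carries the name of 4 of the 7. The RefSeq promoter windows of this build run from 250 bases before an annotated start to 50 after it, and there are 8 windows for the 7 genes because Amy1 has 2 annotated starts, 2988 bases apart. Amy1 read above noise in all 5 tissues, and Amy2a5, Amy2b and Amy2a1 each had a bright probe set in pancreas alone. The window of Amy2a1 is described below and not shown. The 250 bases before the start are shown for both Amy1 starts and for Amy2a5 and Amy2b. All 4 lie on the minus strand, at chr3:113577751-113578000 (upstream start of Amy1), chr3:113574763-113575012 (downstream start), chr3:113258700-113258949 (Amy2a5) and chr3:113156728-113156977 (Amy2b). Capitals mark TATAAA, the core of a TATA box, and CANNTG, the E-box bound by basic helix-loop-helix factors such as Ptf1a.
Amy1, upstream start: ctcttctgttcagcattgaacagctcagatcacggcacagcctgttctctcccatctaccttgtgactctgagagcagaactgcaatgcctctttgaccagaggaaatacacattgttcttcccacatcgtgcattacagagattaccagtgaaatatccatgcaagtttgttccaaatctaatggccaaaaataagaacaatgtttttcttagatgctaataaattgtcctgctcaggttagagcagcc
Amy1, downstream start: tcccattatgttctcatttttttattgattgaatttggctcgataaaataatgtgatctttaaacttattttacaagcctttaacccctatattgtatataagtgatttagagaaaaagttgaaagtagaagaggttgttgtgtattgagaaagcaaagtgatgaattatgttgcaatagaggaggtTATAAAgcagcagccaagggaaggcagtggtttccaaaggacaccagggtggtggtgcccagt
Amy2a5: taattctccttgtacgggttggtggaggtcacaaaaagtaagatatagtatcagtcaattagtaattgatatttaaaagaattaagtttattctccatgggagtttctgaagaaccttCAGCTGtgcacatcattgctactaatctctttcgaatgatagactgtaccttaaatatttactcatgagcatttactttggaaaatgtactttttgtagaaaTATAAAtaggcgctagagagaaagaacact
Amy2b: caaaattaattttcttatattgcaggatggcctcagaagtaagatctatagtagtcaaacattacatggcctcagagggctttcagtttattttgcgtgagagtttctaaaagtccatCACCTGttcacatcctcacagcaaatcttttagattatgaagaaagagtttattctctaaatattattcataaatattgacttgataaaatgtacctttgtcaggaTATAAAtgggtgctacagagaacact

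Both strands were searched over the whole windows. The general E-box pattern reads the same on both strands, so its matches lie on both and no strand can be given for them. Each match of the other patterns searched was on the gene's own strand. TATAAA begins 30 bases before the start of Amy2a5, 26 before that of Amy2b and 63 before the downstream start of Amy1, and it was not in the window of the upstream start. It is in 13.6% of all 32851 promoter windows of the table. An E-box begins 132 bases before the start in both Amy2a5 and Amy2b, as CAGCTG in Amy2a5 and as CACCTG in Amy2b. Amy1 has E-boxes only after its upstream start, at bases 26 and 45, and CANNTG is in 72.3% of all windows. The form CACCTG, of which every match is also a CANNTG match, is in 20.2% of all windows and in that of Amy2b alone among the amylase genes. TTTCCC, the core of the second box of the Ptf1a element, is in 25.2% of windows and was found in Amy2a5 and Amy2b, 37 bases after the start, inside the last 58 bases that these windows share without a difference. The windows of Amy2a2, Amy2a3 and Amy2a4 are the same as each other, and their last 162 bases equal the first 162 of the Amy2a5 window, so their annotated starts lie further upstream relative to that sequence. The same 162 bases of Amy2a1 differ from Amy2a5 at 1 base. TATAAA was not found in the windows of Amy2a1, Amy2a2, Amy2a3 or Amy2a4. The TATAAA and TTTCCC of Amy2a5 lie beyond the first 162 bases of its window. The windows of these other Amy2a genes thus end before the matching places, which were not searched. In each of these windows an E-box begins 118 bases before the start, as CAGTTG, and another at base 7 after it, as CAGCTG. The CAGCTG lies in the 162 bases, at the place of the CAGCTG that begins 132 bases before the start of Amy2a5.

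Values are intensities in arbitrary units, each array brought to the same trimmed mean of its chip. As a bound on noise, the distance of the 1st percentile of an array from 0 was used: on chip B this gave 2608 in the pancreas array, 1640 in muscle, 918 in white adipose, 792 in liver and 649.5 in hypothalamus. A call for a tissue needs an intensity 4-fold or more above each of the other tissues, after values under a floor of 123 on chip B (175 on chip A) were raised to it. The labelled tissues carried their own markers: 17 of 20 acinar genes were called for pancreas, 6 of 6 myofibre genes for muscle, 4 of 7 hepatocyte genes for liver, 7 of 8 neuron genes for hypothalamus and 5 of 5 adipocyte genes for white adipose. The background over all 13057 probe sets was 3.58% with a pancreas call, 2.12% with a liver call, 1.98% with a hypothalamus call, 1.85% with a muscle call and 0.911% with a white adipose call.

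In pancreas 4 of the 5 amylase probe sets read above noise, and Amy1 alone among them also read above noise in the other tissues; the fifth was under noise everywhere. Of the 5 amylase probe sets, 4 were called for pancreas, against 5.05% of the 6534 probe sets of chip B. With each array's noise bound as its floor, the same number, 4 of 5, reached 4-fold, against 0.735% of the chip. The median log2 fold of pancreas over the highest other tissue was -0.14 over all probe sets of both chips. The fold of Amy2a5, on floored values, was rank 2 of 6534, that of Amy2b rank 4, that of Amy2a1 rank 7 and that of Amy1 rank 118.

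**Figure D1:**
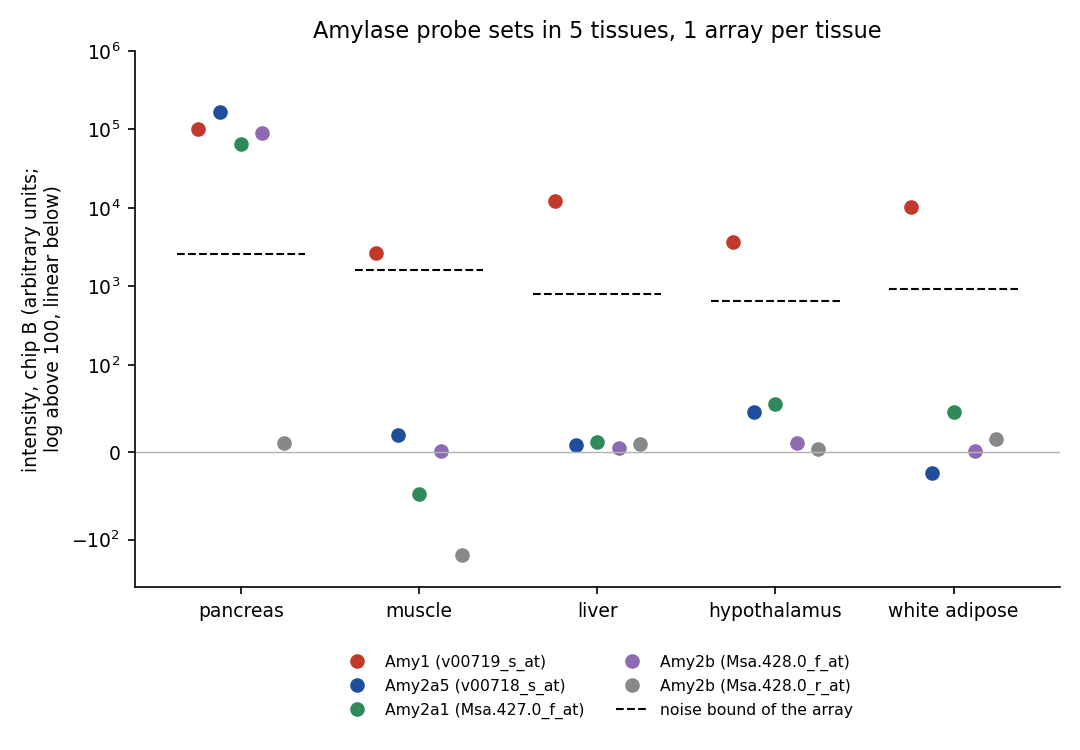
Intensity of the 5 amylase probe sets (points, 1 array each) in the 5 tissues on chip B, on an axis that is logarithmic above 100 and linear below, with the noise bound of each array as a dashed line. In pancreas 4 probe sets lie between 65549 and 168212, and in the other 4 tissues Amy1 is the only one above the line.

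Amy2a5, a pancreatic amylase, read 168212 in pancreas, against 20.1 in muscle, 7.98 in liver, 46.7 in hypothalamus and -23.1 in white adipose. The 4 other tissues were all under their noise bounds and close to 0, so their order carries no information. Set against the highest of those bounds, that of muscle, the pancreas intensity was at least 103-fold higher. In percent of the pancreas value, the bounds allow up to 0.471% in liver, 0.386% in hypothalamus, 0.546% in white adipose and 0.975% in muscle.

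Amy2b and Amy2a1 have family-design probe sets, which can bind messages of related genes, and these too were above noise in pancreas alone; Amy2a2, Amy2a3 and Amy2a4 have no value under their names. That of Amy2b read 91019 in pancreas, against 1.0 in muscle, 4.99 in liver, 10.9 in hypothalamus and 2.01 in white adipose, at least 55.5-fold higher. That of Amy2a1 read 65549 in pancreas, against -48.2 in muscle, 12 in liver, 55.6 in hypothalamus and 46.2 in white adipose, at least 39.98-fold higher. Because these designs can bind several amylase messages, the 3 bright Amy2 probe sets are not separate measurements of 3 genes. The second Amy2b probe set is of a design with relaxed probe selection and did not read above noise in any tissue: it was at 11.0 in pancreas, against -155 in muscle, 9.97 in liver, 3.97 in hypothalamus and 15.1 in white adipose. The pair of probe sets that carry the name Amy2b thus disagreed in pancreas, and the reason was not tested.

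**Figure D2:**
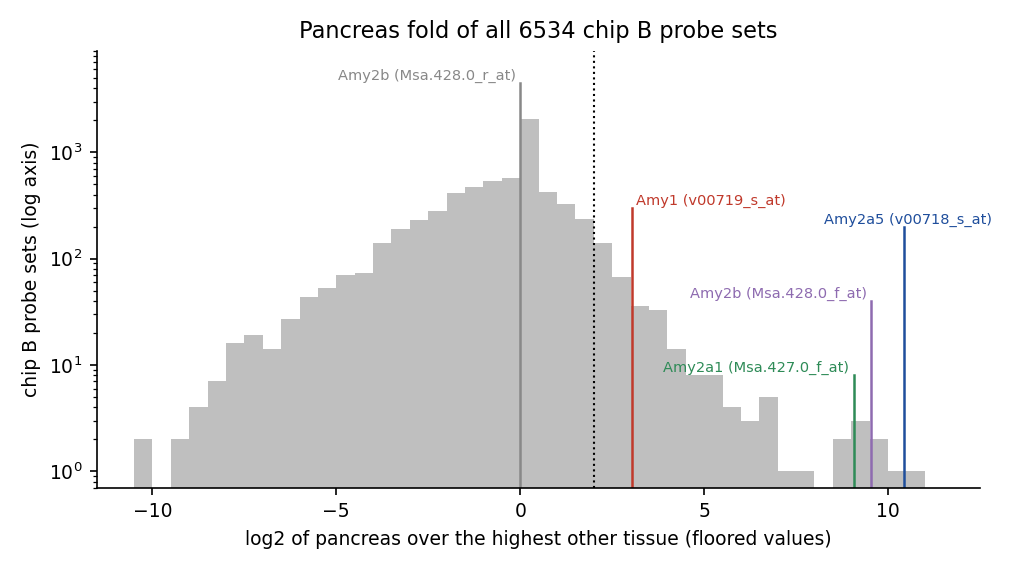
Number of chip B probe sets (log axis) by their log2 fold of pancreas over the highest other tissue on floored values, with the 4-fold rule as a dotted line and the 5 amylase probe sets as coloured lines. The Amy2a5, Amy2b and Amy2a1 lines at 10.42, 9.54 and 9.06 stand at the right end, Amy1 stands at 3.04, and the second Amy2b probe set at 0.00.

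Amy1, the salivary and hepatic amylase, read 99786 in pancreas, against 2655 in muscle, 12173 in liver, 3712 in hypothalamus and 10140 in white adipose. All 5 values were above the noise bound of their array, by 38.3 times in pancreas, 15.4 times in liver, 11.0 times in white adipose, 5.72 times in hypothalamus and 1.62 times in muscle. The pancreas intensity was 8.20-fold that of liver, the next highest. Liver was thus at 12.2% of pancreas, white adipose at 10.2%, hypothalamus at 3.72% and muscle at 2.66%. The probe set is of a design that can share probes with related transcripts, so how much of its pancreas intensity came from Amy2 message cannot be told apart. In the other tissues the Amy2a5 probe set read between -23.1 and 46.7.

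The order of Amy1 levels was pancreas, liver, white adipose, hypothalamus and muscle. Liver and white adipose were neighbours with a ratio of 1.2 (0.26 on the log2 scale), white adipose was 2.73-fold above hypothalamus (1.45), and hypothalamus 1.40-fold above muscle (0.48). With no replicate arrays, the 15 probe sets other than controls that are present on both chips gave a rough idea of the technical spread. Only 2 to 4 of them were above noise in both tissues of a pair on both chips, and whether 1 preparation of cRNA served both chips is not stated. For liver over white adipose their log2 ratios differed between chips by 0.16 and 0.23, close to the 0.26 of Amy1. For pancreas over liver they differed by 0.23 and 0.58, against 3.04 for Amy1, for white adipose over hypothalamus by 0.17 to 0.81, against 1.45, and for hypothalamus over muscle by 0.031 and 0.32, against 0.48. The order of liver and white adipose turned round with quantile normalization, where Amy1 read 10563 in liver and 11366 in white adipose. The pancreas ratio to the highest other tissue fell to 4.56 with scaling by the 75th percentile and to 4.96 with quantile normalization. Under the 4 scalings run, the first place of pancreas and the last places of hypothalamus and muscle were kept.

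**Figure D3:**
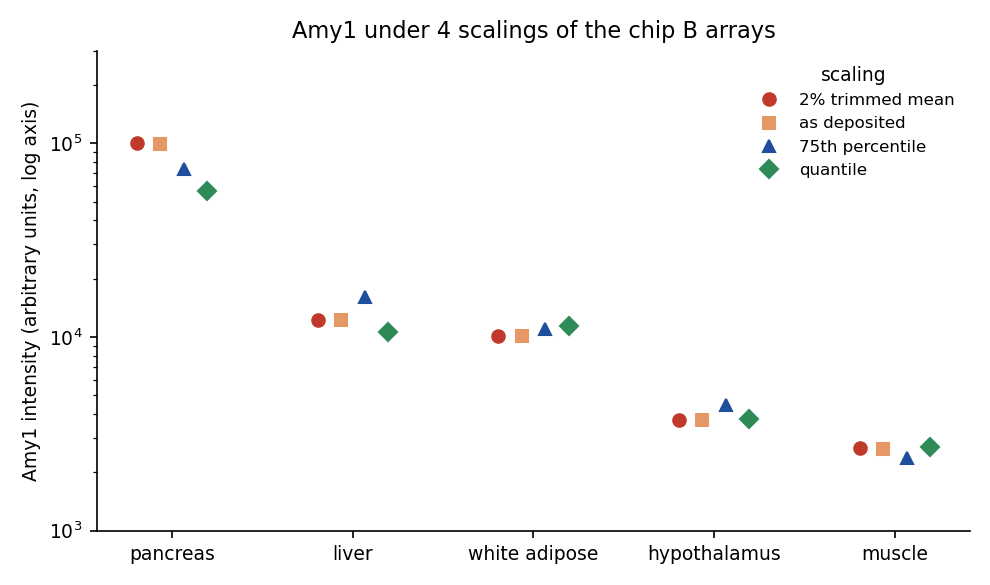
Amy1 intensity (log axis) in the 5 tissues under 4 ways of scaling the chip B arrays, 1 point per array and scaling. Pancreas stays between 56326 and 99786, liver and white adipose lie between 10097 and 16040.5 and change places with quantile normalization, and hypothalamus and muscle lie between 2362 and 4465.

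On chip B, 248 of the 6534 probe sets were above noise in all 5 tissues, Amy1 among them. Of these 6534, 112 were called for pancreas with a pancreas value above noise. Of the 112, 23 were also above noise in liver, 18 in white adipose and 4 in all 5 tissues. Above noise in pancreas were 8.36% of the chip B probe sets, and the 248 all lie among these. The 112 were picked as above noise in pancreas, so 248 of 6534 is not a like share to set beside 4 of 112. The 4 were Amy1, Csnk1g2, a casein kinase, Sec61a1, a subunit of the channel through which new proteins enter the endoplasmic reticulum, and a probe set without a gene name; all but Amy1 were chosen for naming after their values were seen. Csnk1g2 read 15702 in pancreas and 2531 in liver, and Sec61a1 8883 in pancreas and 1312 in liver.

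The other proteins that acinar cells secrete followed the pattern of Amy2a5 more than that of Amy1. Of 37 listed genes other than amylase, 20 were measured, 17 were called for pancreas (3.58% of all probe sets) and 16 of these were above noise there. On floored values the median log2 fold of the 20 was 7.22, against -0.14 over all probe sets. With noise bounds as divisors, as in the folds that follow, the median of the 16 was at least 41.5-fold. The largest of these lower limits were 118-fold for Prss2, a trypsinogen, 103-fold for Rnase1, a secreted ribonuclease, and 96.4-fold for Cela2a, an elastase. Next were 54.2-fold for Tff2, a trefoil peptide, 52.9-fold for Cela1, an elastase, and 51.2-fold for Try4, a trypsin. Each divides the pancreas value by the muscle noise bound of its chip, so within a chip their order follows brightness in pancreas. The order of the folds themselves cannot be read from them. Reg3b, a lectin of the Reg family, was the called gene under the noise bound, at 946 in pancreas. The 3 genes not called were Dnase1, a nuclease, at 109 in pancreas, and the Reg family lectins Reg3a and Reg3g, at 390.3 and -50.0 in pancreas, all under the noise bound.

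Outside the pancreas these acinar genes were under the noise bound, apart from a pair in white adipose. In liver, muscle and hypothalamus 0 of the 20 read above noise, with summed levels of 1809 in liver, 3861 in muscle and 876 in hypothalamus, against 1097860 in pancreas. Sums, here and for the hepatocyte genes, count values below 0 as 0 and add intensities of chips A and B. In liver, muscle and hypothalamus the acinar sums hold only values under noise, so no fold can be read from them. In white adipose the sum was 2673 and 2 of 20 were above noise: Cela1, at 1444, or 1.67% of its pancreas value, and Cel, the carboxyl ester lipase, at 478, or 1.59%. Amy1 in white adipose was at 10.2% of pancreas. For the 16 acinar genes above noise in pancreas, the liver level was under a bound of between 0.410% and 5.09% of pancreas, below the 12.2% of Amy1. In muscle and hypothalamus the bounds reached 10.5% and 4.18% of pancreas, above the 2.66% and 3.72% of Amy1, so there Amy1 was not separated from every acinar gene.

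**Figure D4:**
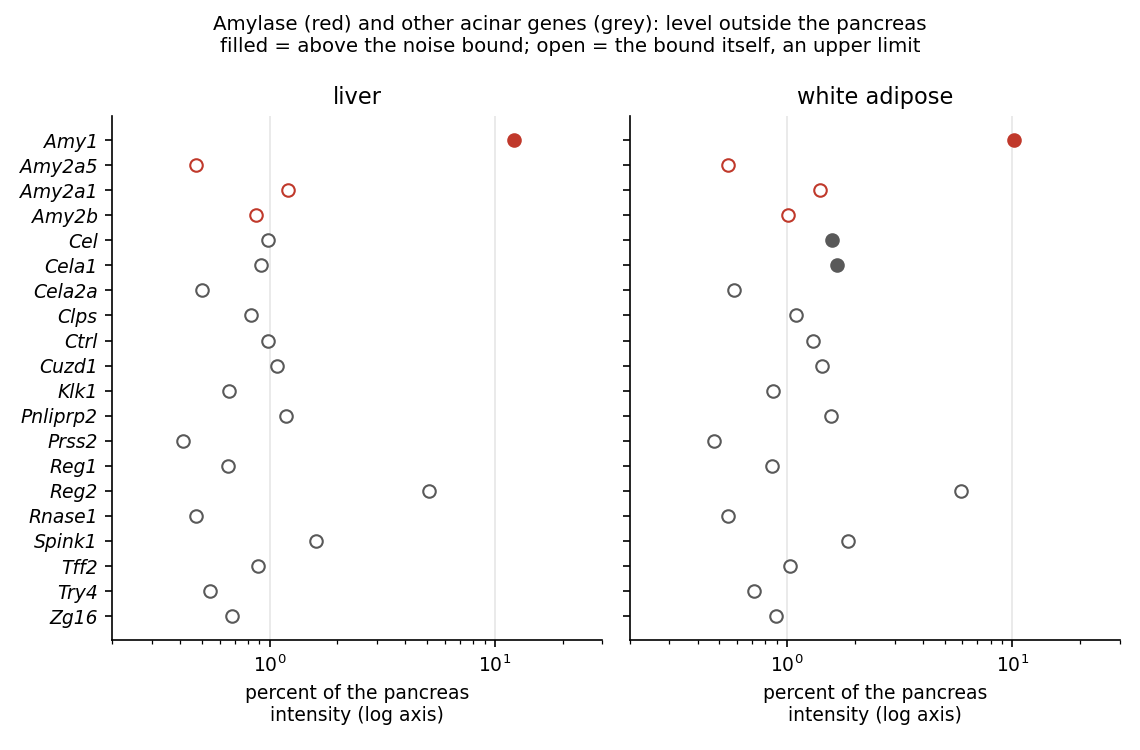
Level in liver (left) and white adipose (right) as a percent of the pancreas intensity of the same probe set (log axis), for 4 amylase probe sets in red and 16 other acinar genes in grey; filled points are above the noise bound and open points are the bound, an upper limit. Amy1 lies at 12.2% and 10.2%, and the other filled points are Cela1 at 1.67% and Cel at 1.59% in white adipose.

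Markers of other cells were read beside the Amy1 values outside the pancreas. Hepatocyte genes were above noise in liver for 6 of 7, with a summed level of 119422, and in 0 of 7 in white adipose (1891) and hypothalamus (1381). The list was not uniform: 4 of 7 were called for liver, and Alb, albumin, read 26265.5 in pancreas and 18122 in liver. Apoa1, an apolipoprotein, was under noise in every tissue by the probe set that represents it, 1 of 2, with 33.9 in liver. In muscle, where Amy1 was lowest, 3 of 7 hepatocyte genes were above noise, with a sum of 16105.5, of which Alb made 8226; their part in the Amy1 value was not tested. In pancreas 3 of 7 were above noise too, with a sum of 35077. Of all probe sets on chips A and B, 35.0% and 16.4% were above noise in liver. The shares were 16.6% and 11.2% in muscle, and 15.5% and 8.36% in pancreas. They were 32.9% and 16.8% in white adipose, and 41.1% and 20.9% in hypothalamus. Of 13 salivary genes 5 were measured, and none of the 5 was above noise in any tissue; Bpifa2, a protein secreted by the parotid, read between -1299.5 and -256. Of 8 islet genes measured, 2 were called for pancreas, Ins2, insulin, at 16498 and Gcg, glucagon, at 757 and under the noise bound, while 3 were called for hypothalamus and 4 were at or below 0 in pancreas. Duct genes were split in the same way: of 6 measured, 1 each was called for pancreas (Muc1, which encodes a mucin, with 4431), hypothalamus and white adipose. Over all probe sets, 3.58% were called for pancreas, 2.12% for liver, 1.98% for hypothalamus and 0.911% for white adipose.

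Genes that regulate acinar cells or receive their secretory signals had smaller folds than the secreted proteins. Of 15 listed, 8 were measured and 2 called for pancreas (3.58% of all probe sets). In pancreas 4 of the 8 were above noise (15.5% of all probe sets on chip A and 8.36% on chip B). Another 2 were at or below 0 there, and a low pancreas value limits the fold that can be seen. On floored values the median log2 fold of the 8 was 0.82, against -0.14 over all probe sets. Cckar, the receptor through which cholecystokinin triggers enzyme release, read 5040 in pancreas, against 83.5 or less in the other tissues, at least 4.73-fold higher. Gata4, a transcription factor, read 1292, at least 1.21-fold higher. Nr5a2, a nuclear receptor that acts on acinar genes, was not called: the probe set that represents it, 1 of 4, had 2720 in pancreas, against 1858 in liver. Xbp1, a regulator of the secretory apparatus, read 3324 in pancreas and 1402 in muscle. Ptf1a, Rbpjl and Bhlha15 had no value under their names.

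Most of the other measured genes of carbohydrate digestion and glycogen turnover did not share the pancreas pattern. Of 26 listed, 13 were measured: 4 were called for muscle, 1 for liver, 1 for pancreas and none for hypothalamus or white adipose, against the shares of all probe sets given above. Their median log2 fold was -2.86 for pancreas and 0.00 for muscle. The muscle genes were Pygm, the glycogen phosphorylase of muscle, at least 62.4-fold higher, Pgm1, a phosphoglucomutase, 5.16-fold higher than in liver, and 2 subunits of phosphorylase kinase, Phka1 and Phkg1, at least 2.04-fold and 1.67-fold higher. Slc2a2, the glucose transporter of hepatocytes and mouse beta cells, read 6376 in liver and 467 in pancreas, at least 2.44-fold higher in liver against the noise bound of pancreas. Lct, lactase, was the gene called for pancreas, at 1208, against a noise bound of 1166. The listed digestive enzymes Mgam, Sis and Treh had no value under their names, so the counts mostly describe glycogen turnover. Gaa, the lysosomal enzyme that cuts glycogen, read 7952 in hypothalamus and 4550 in muscle and was not called.

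The genes most like each member were taken by the Euclidean distance between log2 profiles over the 5 tissues, each profile centred on its own mean. For Amy2a5 the nearest named genes of chip B were Prss2 (distance 0.18), Amy2b (0.79), Rnase1 (1.18), Amy2a1 (1.22), Tff2 (1.28), Klk1b26, a kallikrein (1.47), Cela2a (2.11) and Spink1, a trypsin inhibitor (2.88). All 8 read above noise in pancreas alone. Since Amy2a5 was at the floor in the 4 other tissues, as were Prss2, Amy2b and Amy2a1, these distances mostly reflect how bright each probe set was in pancreas, which depends on its probes, and their order is not one of likeness in tissue pattern. For Amy1 they were Ccna1 (1.0), Htr1b (1.02), Prdx4 (1.37), Il15ra (1.54), Camp (1.55), Alox12 (1.56), P2rx1 (1.60) and Mmp3 (1.65). Of these, Prdx4, a peroxidase of the endoplasmic reticulum, was above noise in 2 tissues, with 5318 in pancreas and 1442 in liver, Htr1b and P2rx1 were above noise in pancreas alone, and the other 5 were above noise in no tissue. No named gene of the chip with signal in all 5 tissues was among the 8.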

How the data were processed

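The authors deposited linear intensities as whole numbers; total RNA (10 µg) was labelled and hybridised after the maker's manual of 2001, per the labels. From 17.0% to 39.0% of an array is below 0, so a signal had been subtracted, and the trimmed means of the arrays are nearly equal; the software is not given in the sources used here. Groups were taken from titles, and for white adipose from the source label.

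Without the 61 control probe sets of each chip, arrays were scaled to the same mean after trimming 2% at each end, which changed values by at most 0.740%. Names came from platform annotation with symbols updated from the GRCm38.p6 table; 5532 probe sets of chip A and 1993 of chip B had 1 gene found there. A fold divides by the highest value or noise bound of the other tissues, with "at least" where a bound is the divisor; log2 folds are on floored values. A listed gene is given by the probe set whose mean log2 value ranks highest on its chip. The members and lists were chosen with earlier results of these data known. Named genes are all amylase probe sets, the 8 nearest genes of each member, and the 6 largest folds and all uncalled genes of the acinar list. The called genes of the other lists and up to 2 per marker list are named too. Nr5a2, Ptf1a, Rbpjl and Bhlha15 were planned by name. Xbp1, Gaa, Cel, Csnk1g2 and Sec61a1 were named outside these rules with their values known. So were Alb and Apoa1, which do not have the largest folds of the hepatocyte list. The call rule was tested on simulated data. Alternatives were 3 scalings, 2 floors, 2 other folds, other probe sets and tissues left out; for the counts, leaving out white adipose was chosen after seeing the data. The comparison of protein sequences that was planned was not run. Python 3.11.15, numpy 2.4.6 and pandas 2.3.3 were used. The number of arrays limits the precision.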

Additional observations from a re-analysis of the deposited data

How the results depend on the processing

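The pancreas call of Amy1 and Amy2a5 was kept under all 9 alternatives run for each: the log2 fold lay between 2.19 and 3.30 for Amy1 and between 6.68 and 10.57 for Amy2a5. The count of amylase probe sets was 4 under the alternatives run for it, except 3 at 10-fold, which Amy1 does not reach. Liver over the highest of muscle, hypothalamus and white adipose for Amy1 was -0.11 on the log2 scale with quantile normalization, against 0.26, and lay between -0.11 and 0.55 in all. The acinar count was 4, against 17, without probe sets of shared, family or relaxed design (those of Amy1 and Amy2a5 are of shared design). This leaves fewer genes than the 20 measured, so the 4 are not out of 20. The regulator count, 2, was 1 with the floor at the 75th percentile, 1 with the noise bound as floor, 4 at 2-fold, 1 at 10-fold and 0 without these designs. The carbohydrate count for pancreas, 1, was 0 with either floor, at 10-fold and without these designs. That for muscle, 4, was 2 with the noise bound as floor, 1 at 10-fold and 2 without these designs. That for liver, 1, was 0 with the noise bound as floor and without these designs, and that for hypothalamus, 0, was 1 without the white adipose arrays. Calls over all probe sets, for pancreas, muscle, liver, hypothalamus and white adipose in that order, were 467, 241, 277, 258 and 119. They were 91, 98, 127, 47 and 32 with the noise bound as floor, 1398, 901, 506, 686 and 348 at 2-fold, and 129, 96, 131, 78 and 33 at 10-fold. With the floor at the 75th percentile they were 192 for pancreas, 139 for muscle, 126 for hypothalamus and 64 for white adipose, and with scaling by the 75th percentile 297 for pancreas. Where no construction of the alternative shows it, the cause was not tested. What lies under the noise bound of an array, highest for pancreas and muscle, could not be seen. No paired analysis was possible because each tissue has 1 array per chip.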

Other observations

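Probe sets without a gene name were also near Amy2a5 on chip B by the distance over the 5 tissues, which for Amy2a5 mostly reflects brightness in pancreas. One of shared design was at a distance of 0.76, with 93234 in pancreas and values under 0 in the other 4 tissues, and one of family design at 0.91, with 82962 in pancreas and values under 0 in the others. Both were singled out after their values were seen. The unnamed probe sets nearest to Amy1 were one at a distance of 0.67, which read 4546 in pancreas and 1022 in liver, both above noise, and one at 0.74, which was above noise in pancreas alone.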
